A study of Homo sapiens with 6 samples.

Results

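The nuclear receptors described here are 35 genes of the ligand-regulated transcription factor family, taken by matching 35 listed gene symbols to the gene names of the deposited count table, which holds 58735 genes. All 35 symbols were found, each once. In ARPE-19 cells overexpressing CD51-ICD, 7 of the 27 receptor genes that could be tested rose and 10 fell. Of all tested genes, 25.2% rose and 25.8% fell. Among the receptors, the largest rise was in VDR, the vitamin D receptor, at 4.56-fold. The largest fall was in NR2F2, the orphan receptor COUP-TFII, which was 3.53-fold lower. Of the 3 COUP-TF genes, NR2F1 fell with NR2F2 while NR2F6 rose. Retinoic acid receptor alpha (RARA) rose while the dimer partner gene RXRA fell and another partner gene, RXRB, did not pass the test. PPARA rose while PPARG and PPARD fell.

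ARPE-19 is an established human cell line of retinal pigment epithelium (RPE), the pigmented cell layer behind the photoreceptors. The study sequenced messenger RNA from 6 libraries: 3 of control cells (NC, genotype WT) and 3 of cells with overexpression of CD51-ICD (OE_CD51_ICD). CD51 is the integrin alpha V subunit encoded by ITGAV. By its title the series asks how SPP1 from microglia acts on RPE through ITGAV in dry macular degeneration, while these libraries come from a single cell line with no microglia in the labels. The sources used here do not give the vector, promoter, clone number, culture time or passage of the cells, nor which of 2 RNA extraction reagents served which library. Nothing says that replicates were separate cultures, so p-values measure library spread only and that spread may be technical.

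Nuclear receptors bind DNA through a pair of zinc fingers and, in most members, a small lipid-soluble ligand such as a retinoid, steroid, thyroid hormone, oxysterol or fatty acid through a C-terminal domain that then exchanges corepressors for coactivators. Retinoic acid, thyroid hormone, vitamin D, PPAR and LXR receptors act as heterodimers with a retinoid X receptor (RXR), steroid receptors act mainly as homodimers, and the orphan receptors have no agreed physiological ligand. RPE handles retinoids as its daily work in the visual cycle, and the COUP-TF and retinoic acid receptors are known for their part in eye development.

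The part of each receptor that reads DNA was set out first, because its codons divide the members into classes. In the recognition helix of the first zinc finger, 3 amino acids of the so-called P box contact the bases of the half-site. A 24-base coding stretch holding this helix was found once in a coding transcript of every one of the 35 members, read from GENCODE 29 on GRCh38. The capitals mark the 3 P-box codons. The stretches shown are those of members whose change the results turn on and of 1 receptor for each other class of the last codon:
RARA: tgtGAGGGCtgcaagGGCttcttc
VDR: tgtGAAGGCtgcaaaGGCttcttc
PPARG: tgtGAAGGAtgcaagGGTttcttc
THRB: tgtGAAGGCtgcaagGGTttcttt
NR2C1: tgtGAAGGCtgcaaaGGAtttttt
NR4A1: tgtGAGGGCtgcaagGGCttcttc
NR2F1: tgcGAGGGCtgcaaaAGTttcttc
NR2F2: tgcGAGGGCtgcaagAGCttcttc
NR2F6: tgcGAGGGCtgcaagAGCtttttc
ESRRA: tgtGAGGCCtgcaaaGCCttcttc
NR3C1: tgtGGAAGCtgtaaaGTTttcttc
NR3C2: tgtGGCAGCtgcaaaGTTttcttc

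The last of the 3 codons separates the family. It was a glycine codon (GGN) in 26 members, the retinoid, thyroid, vitamin D, PPAR, LXR, REV-ERB, ROR, NR4A and most orphan receptors. It was a serine codon (AGN) in the 3 COUP-TF genes, an alanine codon (GCN) in ESR1, ESR2 and ESRRA, and a valine codon (GTN) in NR3C1, NR3C2 and PGR. Of the 21 tested members with the GGN codon, 6 rose and 7 fell, beside 25.2% of all tested genes higher and 25.8% lower. The stretches of NR2F2 at chr15:96332391-96332414 (+), NR2F1 at chr5:93585330-93585353 (+) and NR2F6 at chr19:17244981-17245004 (-) each lie in exon 1. That of VDR lies in exon 3 at chr12:47878970-47878993 (-), and those of NR3C1 at chr5:143314018-143314041 (-) and NR3C2 at chr4:148259994-148260017 (-) lie in exons 3 and 2. In 13 members, RARA, PPARG and THRB among them, an intron splits the stretch. Among paralogs, whose reads could be confused in counting, the longest run of identical bases shared by any pair was 39 bases (RARA and RARG). NR2F1 shared at most 35 with NR2F2 and 35 with NR2F6, and NR3C1 shared 31 with NR3C2.

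Total counts ran from 13616694 to 16934668 per library, and the biological coefficient of variation over tested genes was 9.44%. The gene named in the labels was checked first. ITGAV stood at 113, 92.7 and 89.3 CPM in NC and 436, 536 and 371 CPM in OE_CD51_ICD (log2 fold change 2.18 ± 0.11 (SE), adjusted p = 1.47e-16), though gene counts do not separate a construct from the chromosomal gene. Of 16 RPE markers 10 could be tested, 2 rose (PMEL and RLBP1) and 3 fell (EZR, MITF and RDH5), and RPE65 and TTR had no count. The summed level was 7019.5 to 7536 CPM in NC and 5791 to 6560 CPM in OE_CD51_ICD. Nearly all of it came from KRT8, EZR and KRT18, with means of 3717.5, 1909.5 and 1537.7 CPM in NC. In OE_CD51_ICD their means were 3460.9, 1202.1 and 1444.1 CPM. The next highest marker, OTX2, averaged 27.8 CPM in NC and 28.9 CPM in OE_CD51_ICD. Of 10 microglia and macrophage markers only CSF1R could be tested (4.05, 4.18 and 2.57 CPM in NC, 31.7, 30.3 and 36.7 in OE_CD51_ICD), and C1QA, P2RY12 and TREM2 had no count. Of 7 fibroblast markers only COL1A1 could be tested (26.0, 28.4 and 44.3 CPM in NC, 1619, 1507 and 1229 in OE_CD51_ICD). It made up nearly all of the list's summed level, 26.5 to 44.6 CPM in NC and 1229.7 to 1620.2 CPM in OE_CD51_ICD, since none of the other 6 exceeded 0.527 CPM (COL1A2) in any library, and DCN had no count. The endothelial list summed to 2.37 to 3.26 CPM in NC and 0.715 to 1.57 CPM in OE_CD51_ICD (1 of 6 tested, KDR, lower). The photoreceptor and neuron list summed to 5.74 to 6.02 CPM in NC and 4.85 to 7.01 CPM in OE_CD51_ICD (2 of 7 tested, neither past the threshold). The part of these shifts in the receptor results was not tested. In bulk RNA, fewer cells of a kind and less RNA per cell cannot be told apart.

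Levels are given as CPM, read counts scaled to a common library size by TMM, and a call needed an adjusted p under 0.05 in edgeR's quasi-likelihood test, with Benjamini-Hochberg adjustment over all 13787 genes tested. Fold changes are OE_CD51_ICD over NC on the log2 scale. Of the 35 members, 33 had a count in some library and 27 passed the filter on low counts. Of these, 17 (63.0%) were called, against 51.0% of all genes tested. The 7 rises compare with 25.2% of genes higher at this threshold, and the 10 falls with 25.8% lower. The difference from the background was not tested. A change of at least 2-fold was met by 7 members (25.9%), against 12.7% of all genes: VDR and NR2C1 upward (6.89% of genes) and NR2F2, NR2F1, THRB, PPARG and NR3C2 downward (5.83% of genes). The median change over tested members was -0.10, beside 0.01 over all genes, and the median size of change was 0.43, beside 0.38.

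In 22 of the 27 genes the values of the groups did not overlap, 10 with OE_CD51_ICD above (28.0% of all genes) and 12 below (29.5%). Over all tested genes the share without overlap was 57.5%. The 5 members whose groups overlapped were RARB, RXRB, NR1H3, ESRRA and NR3C1. Genes that carry another entry in the factor family column of the deposited table, 951 of which were tested, had 46.3% called, 271 higher and 169 lower.

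**Figure D1:**
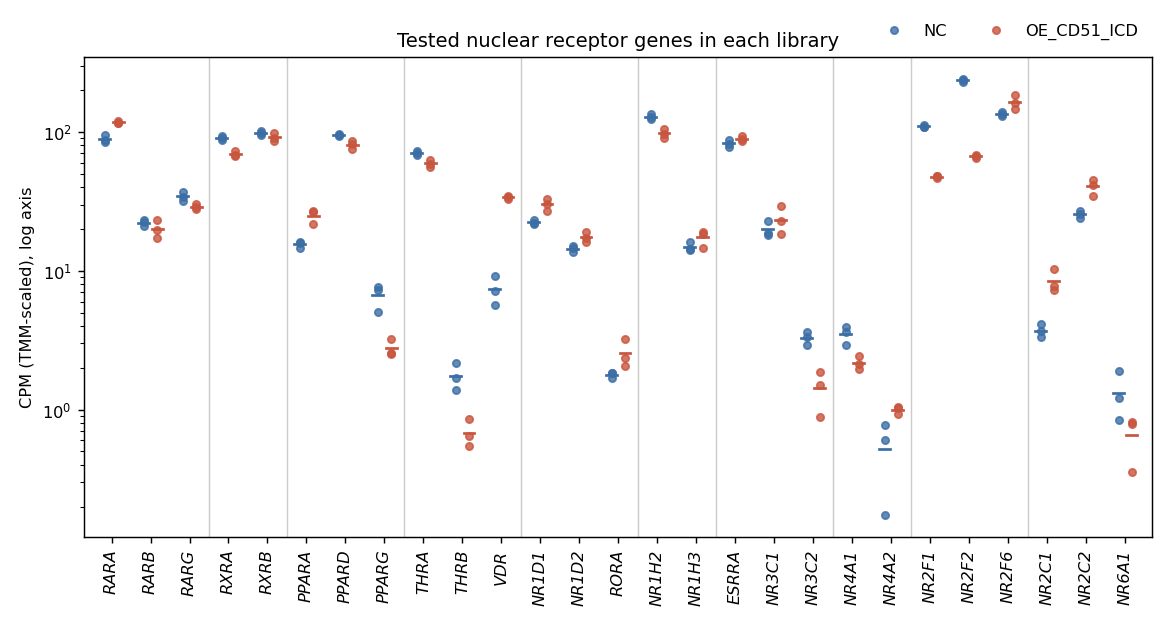
CPM on a log axis for the 27 tested receptor genes, grouped by subfamily, with 1 point per library and a bar at each group's mean. The NR2F1 and NR2F2 points of the 2 groups are far apart downward and those of VDR upward, while RARB, RXRB, NR1H3, ESRRA and NR3C1 overlap.

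**Figure D2:**
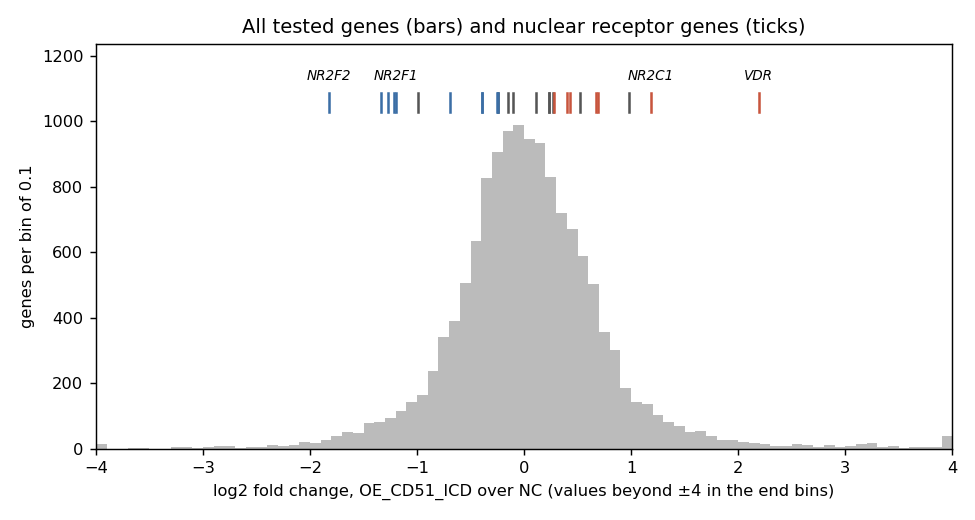
Histogram of the log2 fold change of all 13787 tested genes (bars, genes per bin of 0.1), with the 27 tested receptor genes as ticks above, red for higher, blue for lower and grey for genes that did not pass. Receptor ticks run from -1.82 for NR2F2 to 2.19 for VDR.

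The COUP-TF genes gave the largest fall. NR2F2 (COUP-TFII, chr15:96325938-96340263, plus strand), a repressor and activator known for venous, mesenchymal and eye development, stood at 239, 230.2 and 238 CPM in NC and 65.1, 67.9 and 67.4 CPM in OE_CD51_ICD. The highest overexpressing library lay far under the lowest control. The change was -1.82 ± 0.08 (SE), adjusted p = 1.30e-17, or 3.53-fold lower. NR2F1 (COUP-TFI, chr5:93583224-93594615, plus strand), mutated in an optic atrophy syndrome, stood at 112, 109 and 108 CPM in NC and 48.5, 47.9 and 46.6 CPM in OE_CD51_ICD. The groups were tight and far apart, a fall of 2.30-fold (-1.20 ± 0.09 (SE), adjusted p = 8.58e-13). Its antisense neighbour NR2F1-AS1 shares 158 exon bases with it on the opposite strand and had a log2 fold change of -0.09 (adjusted p = 0.717).

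NR2F6 (EAR2, chr19:17231883-17245940, minus strand), the more distant COUP-TF relative, moved the other way, at 139, 135 and 130.4 CPM in NC and 162, 147 and 184 CPM in OE_CD51_ICD. All 3 overexpressing libraries were above all controls, by a small margin (0.28 ± 0.09 (SE), adjusted p = 0.00671), and the call was lost in the fit on log2(FPKM + 1) with no filter (adjusted p = 0.110). The deposited FPKM values, which divide by gene length so that genes can be compared, show the change in make-up. The deposited length is that of all annotated exons merged, not of the transcripts expressed. Shares and ranks by FPKM, here and below, depend on that length. NR2F6 held 44.9% ± 0.755 (SD, n = 3) of the summed COUP-TF FPKM in NC and 74.0% ± 2.35 in OE_CD51_ICD. The NR2F2 share went from 32.5% ± 0.681 to 12.6% ± 1.10, and that of NR2F1 from 22.6% ± 0.0821 to 13.4% ± 1.30. The summed FPKM of the trio was 111.5 ± 1.94 in NC and 81.8 ± 7.77 in OE_CD51_ICD.

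Of the retinoic acid receptors, which switch on differentiation genes when retinoic acid binds, 1 of 3 passed the test. RARA, the alpha form, stood at 87.8, 84.3 and 95.1 CPM in NC and 116, 116 and 119.7 CPM in OE_CD51_ICD. All 3 overexpressing libraries exceeded the controls (0.40 ± 0.08 (SE), adjusted p = 1.89e-04). RARB, the beta form and itself a textbook retinoic acid target, stood at 22.4, 21.2 and 23.2 CPM in NC and 19.6, 23.3 and 17.3 CPM in OE_CD51_ICD. The ranges overlap and the gene did not pass (-0.15 ± 0.13 (SE), adjusted p = 0.346). RARG, the gamma form, read 31.9, 34.2 and 37.0 CPM in NC and 27.8, 28.8 and 30.3 CPM in OE_CD51_ICD. Its groups do not overlap, but it missed the threshold (-0.25 ± 0.11 (SE), adjusted p = 0.0576). By FPKM, RARA made up 59.7% ± 0.600 (SD, n = 3) of the receptor trio in NC and 69.1% ± 1.60 in OE_CD51_ICD.

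With the GC trend of each library removed, RARB was called lower (-0.37, adjusted p = 0.00657), while RARG was near 0 (-0.05, adjusted p = 0.647). RARG was called lower under library size scaling (adjusted p = 0.0175) and without NC replicate 1 (0.0466) or OE_CD51_ICD replicate 3 (0.0413). It was not called under the other 17 of 20 alternative settings. RARA shares 556 exon bases with the antisense gene RARA-AS1, which had 408 counts over 6 libraries beside 9255 for RARA.

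A promoter stretch of RARB is shown because it carries the direct repeat through which retinoic acid receptors act on this gene. It covers the 100 bases before the RefSeq start, chr3:25428163-25428262 on the plus strand of GRCh38.p14, and the capitals mark the half-sites of the repeat, 53 to 37 bases before the start:
RARB: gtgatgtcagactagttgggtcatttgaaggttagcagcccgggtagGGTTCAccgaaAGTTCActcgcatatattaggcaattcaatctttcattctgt

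The repeat was searched as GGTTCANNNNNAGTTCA on both strands of RefSeq promoters that run from 250 bases before to 50 after the start. These half-site letters are those of the RARB element itself, so the RARB match was set by the choice of pattern and is no finding. The pattern occurred in 0.0171% of 35116 promoters and in 1 of the 76 promoters of members, that of RARB. Direct repeats of AGGTCA with 0 to 5 bases between them occurred in 0 of the 76 promoters of members. Promoters were matched for 32 of the 35 members, and VDR, NR2F6 and NR4A2 had no entry in the table. The single half-site AGGTCA occurred in 13.8% of all promoters and in 11 of the 76 promoters of members, belonging to ESR2, NR1H3, NR5A2, PPARG, RARA, RARB and RXRG. The E-box CACGTG, to which clock factors bind, occurred in 7.26% of all promoters and in 8 of 76. A match describes letters and not a bound site.

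Retinoid X receptors are the shared dimer partners. RXRA stood at 90.9, 87.5 and 92.9 CPM in NC and 67.9, 66.8 and 72.5 CPM in OE_CD51_ICD, with every overexpressing library below every control, and fell (-0.39 ± 0.09 (SE), adjusted p = 3.31e-04). With the GC trend of each library removed, its fall was smaller (-0.19, adjusted p = 0.0199). RXRB, the other expressed partner, read 95.1, 102 and 99.0 CPM in NC and 91.0, 86.7 and 98.5 CPM in OE_CD51_ICD. The groups overlapped and it did not pass (-0.10 ± 0.08 (SE), adjusted p = 0.329), and its sign turned with the GC trend removed (0.0628). Its opposite-strand neighbour SLC39A7, which shares 244 exon bases with it, rose by 0.76 (adjusted p = 2.07e-09). RXRG, the form found in cones and muscle, had no count in any library. By FPKM, RXRB held 75.5% ± 1.10 (SD, n = 3) of the RXR sum in NC and 79.0% ± 0.382 in OE_CD51_ICD. By CPM, which does not divide by gene length, the means of RXRA and RXRB were 90.4 and 98.8 in NC. In OE_CD51_ICD they were 69.1 and 92.1 CPM.

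**Figure D3:**
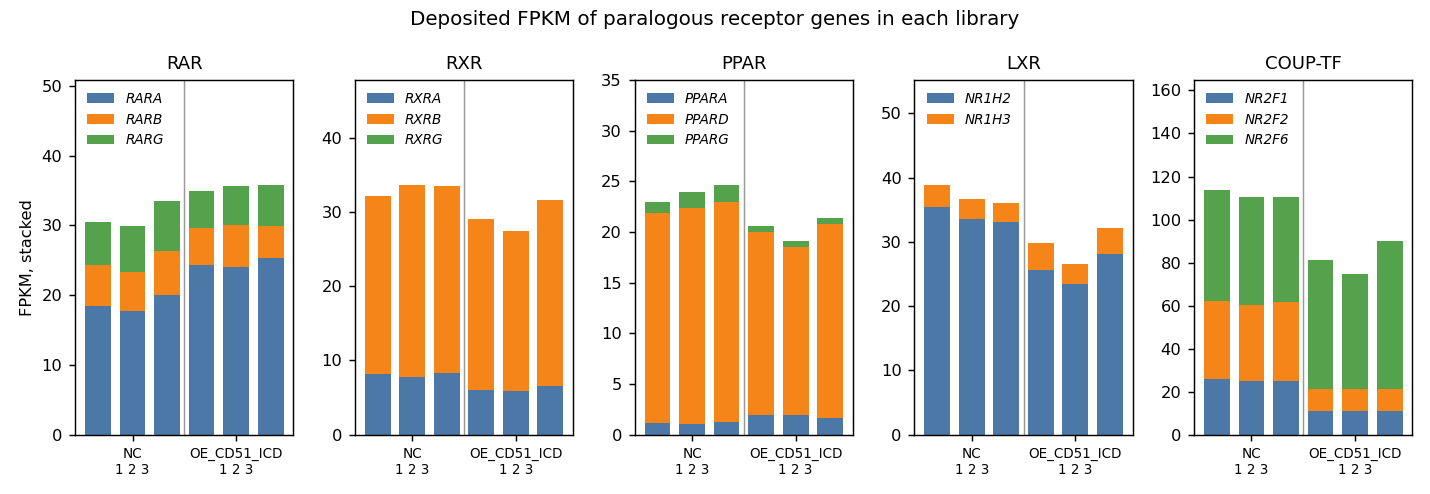
Stacked deposited FPKM of paralogous receptor genes in each of the 6 libraries, with 1 panel per group and its own axis from 0. RARA and NR2F6 take a larger share, and NR2F1 and NR2F2 a smaller one, in the OE_CD51_ICD libraries, and RXRG is at 0.

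All 3 peroxisome proliferator-activated receptors, sensors of fatty acids, passed the test in differing directions. PPARA, which drives fatty acid oxidation, stood at 15.8, 14.5 and 16.2 CPM in NC and 26.3, 26.9 and 21.7 CPM in OE_CD51_ICD and rose 1.61-fold (0.69 ± 0.13 (SE), adjusted p = 4.62e-05). PPARG, the regulator of adipocyte genes, stood at 5.09, 7.29 and 7.70 CPM in NC and 2.57, 3.21 and 2.50 CPM in OE_CD51_ICD. It was 2.41-fold lower, with no overlap (-1.27 ± 0.22 (SE), adjusted p = 2.22e-05). PPARD, the widely expressed form, read 93.2, 95.6 and 97.3 CPM in NC and 81.2, 75.5 and 85.6 CPM in OE_CD51_ICD. Its fall was small (-0.24 ± 0.08 (SE), adjusted p = 0.0193), and 6 of 20 alternative settings lost the call, among them removal of the GC trend (adjusted p = 0.395), upper-quartile scaling (0.0523) and the fits without NC replicate 2 (0.0603), OE_CD51_ICD replicate 1 (0.0957) or OE_CD51_ICD replicate 2 (0.104).

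By FPKM, PPARD was the main form in both groups, at 89.0% ± 0.939 (SD, n = 3) of the sum in NC and 87.8% ± 1.84 in OE_CD51_ICD. PPARA went from 4.88% ± 0.307 to 9.20% ± 1.36 and PPARG from 6.12% ± 1.12 to 2.97% ± 0.553. In all 3 OE_CD51_ICD libraries PPARA lay above PPARG, as it also did in NC replicate 1 (5.14% and 4.83%), while in NC replicates 2 and 3 it lay below. By CPM, which does not divide by gene length, PPARA lay above PPARG in every library.

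VDR (chr12:47841537-47943048, minus strand), through which calcitriol acts, stood at 9.20, 5.66 and 7.16 CPM in NC and 33.8, 33.1 and 34.5 CPM in OE_CD51_ICD. The lowest overexpressing library was more than 3 times the highest control, and the change was 2.19 ± 0.15 (SE), adjusted p = 1.71e-13, or 4.56-fold. Its FPKM rank among members went from 19 to 12. The thyroid hormone receptors fell. THRA, the alpha form, read 70.5, 68.5 and 72.7 CPM in NC and 63.2, 55.8 and 59.2 CPM in OE_CD51_ICD (-0.25 ± 0.09 (SE), adjusted p = 0.0213). THRB, the beta form that patterns cone opsins, was scarce at 1.39, 1.70 and 2.16 CPM in NC and 0.856, 0.547 and 0.644 CPM in OE_CD51_ICD, or 80 counts in all of NC and 30 in OE_CD51_ICD, and was 2.53-fold lower (-1.34 ± 0.38 (SE), adjusted p = 0.00441).

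Both thyroid calls depended on the settings. THRB was lost on log2(FPKM + 1) with the filter (adjusted p = 0.0594) and with no filter on low counts (0.0652). THRA was lost under 8 of 20 settings, including GC removal (0.524), upper-quartile scaling (0.0563) and the fits without NC replicate 1 (0.0501), NC replicate 3 (0.0575) or OE_CD51_ICD replicate 2 (0.101). THRA and NR1D1 lie tail to tail and share 263 exon bases on opposite strands, and since no source says whether counting used strand, reads from those bases cannot be told apart.

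**Figure D4:**
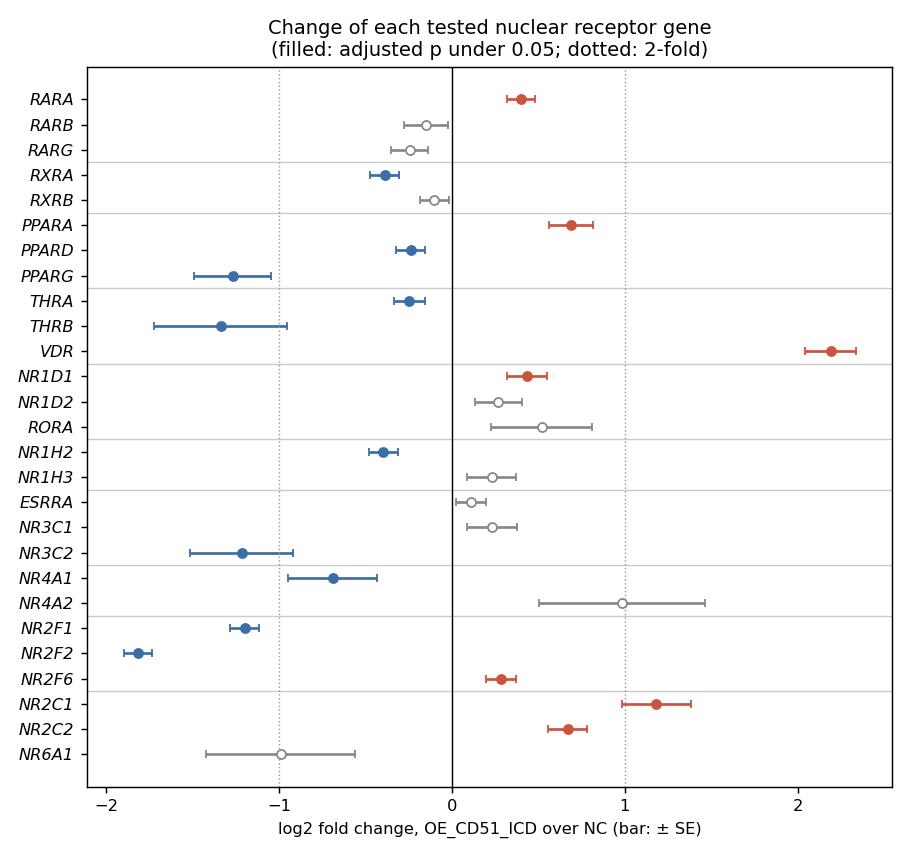
Log2 fold change with its SE for the 27 tested receptor genes by subfamily. Filled points had an adjusted p under 0.05 (red higher, blue lower), open points did not, and dotted lines mark 2-fold. VDR and NR2C1 lie beyond the upper line, and NR2F2, NR2F1, THRB, PPARG and NR3C2 beyond the lower.

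The REV-ERB receptors are haem-binding repressors of the circadian clock that compete with the activating ROR receptors for the same element. NR1D1 (REV-ERB alpha) stood at 22.0, 21.6 and 23.3 CPM in NC and 30.1, 27.1 and 33.1 CPM in OE_CD51_ICD and rose (0.43 ± 0.12 (SE), adjusted p = 0.00241), with every overexpressing library above every control. NR1D2 (REV-ERB beta) read 15.2, 13.7 and 14.5 CPM in NC and 17.2, 18.9 and 16.0 CPM in OE_CD51_ICD. Its groups do not overlap, but it did not pass (0.27 ± 0.14 (SE), adjusted p = 0.103). RORA was low at 1.68 to 1.84 CPM in NC and 2.05 to 3.23 CPM in OE_CD51_ICD and did not pass (0.52 ± 0.29 (SE), adjusted p = 0.140). RORB had 0 to 2 counts per library and was not tested.

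Liver X receptors sense oxysterols and switch on cholesterol efflux. NR1H2 (LXR beta), the main form, stood at 134, 127 and 124 CPM in NC and 96.8, 90.4 and 106 CPM in OE_CD51_ICD. The groups are apart and the gene fell (-0.40 ± 0.08 (SE), adjusted p = 2.35e-04). NR1H3 (LXR alpha) read 16.1, 14.3 and 14.1 CPM in NC and 19.0, 14.6 and 18.5 CPM in OE_CD51_ICD. The ranges overlap through OE_CD51_ICD replicate 2, and it did not pass (0.23 ± 0.14 (SE), adjusted p = 0.178), while without that replicate it was called higher (adjusted p = 0.0424), as it was with the GC trend removed (0.0288). NR1H3 shares 189 exon bases with ACP2 on the opposite strand, which rose by 0.61 (adjusted p = 2.09e-06). The NR1H3 share of LXR FPKM was 8.70% ± 0.284 (SD, n = 3) in NC and 12.8% ± 1.09 in OE_CD51_ICD.

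Among steroid receptors, NR3C1, the glucocorticoid receptor, read 22.9, 18.1 and 18.7 CPM in NC and 22.7, 29 and 18.4 CPM in OE_CD51_ICD. The ranges overlap widely and the gene did not pass (0.23 ± 0.14 (SE), adjusted p = 0.180), though it was called without OE_CD51_ICD replicate 3 (adjusted p = 0.0192), and its sign turned with the GC trend removed (-0.0175). NR3C2, the mineralocorticoid receptor, was lower at 3.36, 2.90 and 3.65 CPM in NC and 1.51, 0.888 and 1.86 CPM in OE_CD51_ICD. It was 2.32-fold lower with no overlap (-1.22 ± 0.30 (SE), adjusted p = 0.00103), on 153 counts in NC and 62 in OE_CD51_ICD. The NR3C2 share of the FPKM of this pair, whose P boxes differ only in a synonymous codon, went from 18.8% ± 2.28 (SD, n = 3) to 8.29% ± 4.12.

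ESRRA (ERR alpha), an orphan receptor of mitochondrial genes, read 87.7, 82.5 and 77.9 CPM in NC and 88.5, 86.0 and 93.6 CPM in OE_CD51_ICD. Its groups overlap and it did not pass (0.11 ± 0.09 (SE), adjusted p = 0.288), but it was called higher with the GC trend removed (0.35, adjusted p = 2.31e-04). It shares 284 exon bases with TRMT112 on the opposite strand, which had 11472 counts over 6 libraries beside 7744 for ESRRA. ESR1, the oestrogen receptor, had 4 to 11 counts per library, ESR2 2 counts in all and PGR, the progesterone receptor, 1, and none of these was tested.

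The NR4A receptors are immediate early genes that act without a known ligand. NR4A1 stood at 3.93, 2.90 and 3.65 CPM in NC and 1.97, 2.12 and 2.43 CPM in OE_CD51_ICD and was lower (-0.69 ± 0.26 (SE), adjusted p = 0.0267), with no overlap. The call was lost under 8 of 20 settings, including DESeq2 (adjusted p = 0.0550) and the fits without NC replicate 1 (0.101), NC replicate 3 (0.0569), OE_CD51_ICD replicate 1 (0.107) or OE_CD51_ICD replicate 2 (0.0679). NR4A2, important for dopamine neurons, had 3, 11 and 9 counts in NC and 16, 15 and 13 in OE_CD51_ICD and did not pass (0.98 ± 0.48 (SE), adjusted p = 0.0874), although limma-voom called it (0.0431). NR4A3 had no count in NC and 5, 0 and 0 counts in OE_CD51_ICD.

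Both testicular orphan receptors, repressors that bind direct repeats, rose. NR2C1 (TR2) stood at 4.11, 3.68 and 3.31 CPM in NC and 7.31, 10.3 and 7.73 CPM in OE_CD51_ICD. The lowest overexpressing library was well above the highest control, a 2.27-fold rise (1.18 ± 0.20 (SE), adjusted p = 1.15e-05). NR2C2 (TR4) stood at 23.8, 26.8 and 25.8 CPM in NC and 41.8, 45.0 and 34.7 CPM in OE_CD51_ICD and rose 1.59-fold (0.67 ± 0.11 (SE), adjusted p = 1.13e-05), again with no overlap. Of its exon bases 1197 (10.1%) are shared with the opposite-strand gene MRPS25, which fell by 0.38 on the log2 scale (adjusted p = 0.00535). NR6A1 (GCNF), a germ cell factor, ran from 0.850 to 1.89 CPM in NC and from 0.358 to 0.820 CPM in OE_CD51_ICD. It missed the threshold (-0.99 ± 0.43 (SE), adjusted p = 0.0555), and passed without NC replicate 2 (adjusted p = 0.0356).

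Liver and endoderm receptors were at or near 0. HNF4A, like RXRG, had no count in any library, which allows at most 0.0649 CPM over NC and 0.0685 CPM over OE_CD51_ICD if 3 counts are taken as the limit. NR5A2 had 0 or 1 count per library. These limits cover counting error only.

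The order of levels within the family, by FPKM, was led by NR2F6 in both groups, at 50.1 ± 1.44 (SD, n = 3) in NC and 60.7 ± 7.70 in OE_CD51_ICD. In NC it was followed by NR2F2 at 36.2 ± 0.783 and NR1H2 at 34.0 ± 1.23, whose ranges over libraries overlap, and then by ESRRA at 27.1 ± 1.52, NR2F1 at 25.2 ± 0.372 and RXRB at 25.0 ± 0.949, whose ranges over libraries overlap one another. In OE_CD51_ICD, ESRRA at 29.1 ± 1.61 came after NR2F6, followed by NR1H2 at 25.7 ± 2.34, RARA at 24.5 ± 0.659 and RXRB at 23.2 ± 1.77 and each of these overlaps the next in the order. NR2F2 went from rank 2 to rank 9, at 10.2 ± 0.211, and RARA from rank 8 to rank 4. By CPM, which does not divide by gene length, NR2F2 and not NR2F6 was highest in NC, with means of 235.8 and 134.9. In OE_CD51_ICD their means were 66.8 and 164.3 CPM.

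The genes around the receptors were read from lists chosen by textbook role. Counts in each list stand beside the 25.2% of all tested genes higher and 25.8% lower. Each median stands beside the 0.01 over all genes. Of 16 tested coactivators 7 rose and 6 fell (median 0.09), with NCOA3, a steroid receptor coactivator, at 0.91 ± 0.14 and MED14, the Mediator backbone, at 0.73 ± 0.11. PPARGC1A, the PPAR and ERR coactivator PGC-1 alpha, named after its values were seen, had 40, 30 and 28 counts in NC and 1, 1 and 0 in OE_CD51_ICD (adjusted p = 1.97e-08). Of 14 corepressors 5 rose and 4 fell (median 0.00). SAP30 of the SIN3 complex stood at 41.3, 48.1 and 38.8 CPM in NC and 18.8, 19.3 and 22.9 CPM in OE_CD51_ICD, 2.10-fold lower (-1.07 ± 0.12 (SE), adjusted p = 6.15e-09).

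Genes that supply or break down ligands are read beside the 25.2% of all tested genes that were higher and the 25.8% that were lower. Of 8 tested retinoid genes 2 rose and 4 fell (median -0.41). RDH10, which makes the first oxidation of retinol, was 3.67-fold lower (-1.88 ± 0.09 (SE), adjusted p = 1.76e-16). Of 16 tested genes for steroid, vitamin D and thyroid ligands 3 rose and 9 fell (median -0.33). HSD17B2, which inactivates oestradiol and testosterone, was 8.32-fold lower. CYP24A1, which breaks down calcitriol and is a textbook VDR target, stood at 382, 435 and 394 CPM in NC and 128, 139.7 and 108 CPM in OE_CD51_ICD. It was 3.22-fold lower (-1.69 ± 0.09 (SE), adjusted p = 9.82e-16) in the same libraries in which VDR was higher.

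Listed targets of the receptors moved in both directions, and are read beside 25.2% of all tested genes higher and 25.8% lower. Of 7 tested retinoic acid receptor targets 1 rose and 5 fell (median -0.54), TGM2, a transglutaminase, at 3.18 ± 0.08 and RARRES1 at -1.36 ± 0.20. Of 13 PPAR targets 5 rose and 2 fell (median -0.03), led by ANGPTL4, a lipoprotein lipase inhibitor also on the glucocorticoid list, which stood at 0.579, 0.496 and 1.22 CPM in NC and 31.9, 27.9 and 58.2 CPM in OE_CD51_ICD (5.68 ± 0.28), and TXNIP at 1.0 ± 0.15. Of 9 LXR targets 3 rose and 1 fell (median 0.09), with SCD, a fatty acid desaturase, at 2.17 ± 0.08. ABCA1, the cholesterol efflux pump, was called at 0.73 ± 0.20 with overlapping groups, and the call was lost on log2(FPKM + 1) with no filter (adjusted p = 0.184). Of 13 glucocorticoid receptor targets 7 rose and 1 fell (median 0.30), with SGK1, a kinase, at 2.50 ± 0.14. Of 5 vitamin D and thyroid hormone targets 1 rose, ME1 at 0.56 ± 0.12, and 3 fell (median -0.29). The falls include CYP24A1, already counted among the ligand genes, while CAMP, TRPV6 and CD14 of this list could not be tested. The list pools targets of VDR and of the thyroid hormone receptors, so its count does not read either alone.

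The next lists are again read beside 25.2% of all tested genes higher and 25.8% lower. Of 19 circadian genes 4 rose, 4 fell and 11 did not pass (median -0.12). ARNTL (BMAL1), whose gene REV-ERB represses, stood at 4.86, 5.31 and 4.06 CPM in NC and 14.6, 21.5 and 15.0 CPM in OE_CD51_ICD (1.84 ± 0.18 (SE), adjusted p = 6.86e-10), higher together with NR1D1, and the repressor BHLHE40 was at 2.43 ± 0.08. Of 12 ERR targets of mitochondrial metabolism, a list that holds ESRRA itself, 7 fell and none rose (median -0.27), with MFN2, a mitochondrial fusion protein, at -0.51 ± 0.08. Of 14 other immediate early genes 6 rose and 3 fell (median -0.04), with JUNB at 3.15 ± 0.09 and FOSL1 at -2.12 ± 0.11, so NR4A1 fell while JUNB rose.

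**Figure D5:**
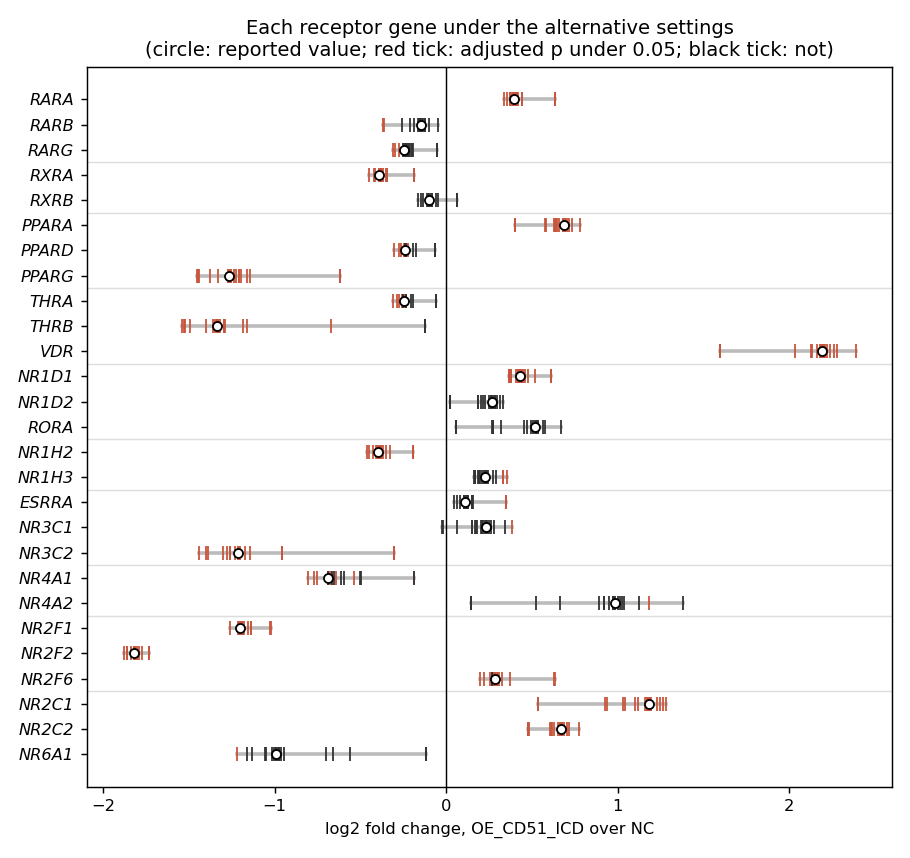
Log2 fold change of each tested receptor gene as reported (circle) and under up to 20 alternative settings (ticks, red where the adjusted p was under 0.05), with a grey line from lowest to highest. Ticks of NR2F2 stay between -1.88 and -1.73 and those of VDR between 1.60 and 2.39, while RXRB and NR3C1 cross 0.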

How the data were processed

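RNA sequencing of 3 NC and 3 OE_CD51_ICD libraries of ARPE-19 cells was used, grouped by sample title. The authors deposited whole-number gene counts and FPKM values for 58735 genes, with identifier, symbol, coordinates and gene length per the file headers, all matching GENCODE 29. The hg38 build is named in the submitters' processing notes. The sources used here give no aligner, counting program or strand setting.

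The test was edgeR 4.0.16 under R 4.3.3 on the deposited counts (filterByExpr, TMM, glmQLFit, glmQLFTest, two-sided, Benjamini-Hochberg adjustment over 13787 genes, no covariate). The SE of a log2 fold change came from the F statistic. The edgeR test was checked on simulated counts for recovery of set fold changes, false calls and direction. The SE was not part of that check. limma 3.58.1 and DESeq2 1.42.0 served as alternatives, with other scalings, filters, pseudocounts (1 and 0.1), GC removal (loess, span 0.5), a replicate block and each library left out. Levels between genes were compared by the deposited FPKM. P-box stretches were read from GENCODE 29 coding transcripts on GRCh38, and promoters from RefSeq (GRCh38.p14).

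The members and gene lists were chosen with earlier results of these data known. All 35 members are named, with every library's value for called members and for tested members averaging at least 5 CPM. From each list, the 2 called non-members with the largest change averaging at least 5 CPM are named, except for some genes and 1 list that are not reported here. With 3 against 3 libraries, an exact permutation test cannot give a p under 0.10.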

Additional observations from a re-analysis of the deposited data

How the results depend on the processing

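Each result was recomputed under up to 20 alternatives. Of 17 called receptor genes, 12 were called in the same direction in every setting: RARA, PPARA, VDR, NR1D1, NR2C1 and NR2C2 higher, and RXRA, PPARG, NR1H2, NR3C2, NR2F1 and NR2F2 lower. Of 538 alternative fits on receptor genes, 496 kept direction and side of the threshold, 25 lost a call (PPARD, THRA, THRB, NR4A1 and NR2F6), 13 gained one and 4 turned sign. The sign turned for RXRB (0.0628 with the GC trend removed, 0.0632 with GC and the replicate block) and NR3C1 (-0.0175 and -0.0221), and neither was called. The number of receptors called higher was 6 to 9 and lower 7 to 11 over all settings.

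The count of receptors at least 2-fold higher was 1 on log2(FPKM + 1), with or without the filter, and 1 with the GC trend removed, with or without the block. In each of these VDR stayed and NR2C1, whose lowest value over the alternatives was 0.54, was under 2-fold. The count was 3 under limma-voom. The count at least 2-fold lower was 2 on log2(FPKM + 1), with or without the filter, and 3 on log2(FPKM + 0.1), where a pseudocount shrinks low genes. It was 6 without NC replicate 2 and 4 without OE_CD51_ICD replicate 2. The median over receptors was -0.17 when only library size scaled the counts, -0.0175 after GC removal and -0.0221 after GC removal with the replicate block. It ranged from -0.133 to -0.0459 when 1 library was left out, the value being -0.0459 without OE_CD51_ICD replicate 2 and -0.0475 without OE_CD51_ICD replicate 3.

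The replicate numbers are not said to pair the libraries. Deviations from the group mean in same-numbered NC and OE_CD51_ICD libraries had correlation coefficients of -0.05, 0.00 and 0.05. Those of differently numbered libraries ran from -0.08 to 0.09. With the replicate block, 7 receptors were higher and 10 lower, and 3437 genes were higher and 3552 lower over all genes, beside 3469 and 3559 without it. Depth limits THRB, NR3C2, RORA, NR4A1, NR4A2 and NR6A1, each of which had under 100 counts over the libraries of at least 1 group. The cause of the changes under GC removal was not tested.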

Other observations

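Receptor genes on a chromosome can be set beside the median change of all tested genes there. On chromosome 17, where the median of 861 tested genes was -0.13, RARA (0.40 ± 0.08) and NR1D1 (0.43 ± 0.12) were above it and THRA (-0.25 ± 0.09) below. On chromosome 19, with a median of -0.18 over 947 genes, NR1H2 was at -0.40 ± 0.08 and NR2F6 at 0.28 ± 0.09. On chromosome 11, where 40.4% of 792 tested genes were higher and the median was 0.21, ESRRA was at 0.11 ± 0.09 and NR1H3 at 0.23 ± 0.14, close to that median, and neither was called.

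Transcript GC content of tested receptors was over 55% in 13 genes, of which 3 rose and 6 fell, and 55% or under in 14, of which 4 rose and 4 fell, beside 25.2% of all tested genes higher and 25.8% lower. NR2F6 had the highest GC content, at 71.1%, and RORA the lowest, at 35.8%.

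The summed FPKM of the NR4A group was 0.606 ± 0.0399 (SD, n = 3) in NC and 0.562 ± 0.0248 in OE_CD51_ICD, while the NR4A1 share of it went from 78.7% ± 12.9 to 52.5% ± 6.36. The summed FPKM of NR2C1 and NR2C2 was 2.70 ± 0.0981 in NC and 4.65 ± 0.563 in OE_CD51_ICD.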
